A study of Homo sapiens with 23 samples.

Results

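The cells described here are SUDHL5 lymphoma cells given CDK-TCIP1 at 100 nM for 2 h, the highest dose of the series. They are set against cells given the comparison compounds Neg1 or Neg2, each at 30 nM for 2 h. The comparison takes 7 of the 23 libraries of the series, chosen by their titles: 3 at 100 nM, and as controls 2 of Neg1 and 2 of Neg2. Lower doses of CDK-TCIP1 at the same time, 10 nM in 2 libraries and 30 nM in 4, place the 100 nM values in a dose series, and 3 libraries of DMSO vehicle at 4 h serve as a further reference. All cells received a final 0.1% DMSO. The controls were thus dosed lower than the cells at 100 nM, and no vehicle library of 2 h was used here. The labels name Neg1 also BAK-04-054 and Neg2 BAK-04-066, and do not give their chemistry or whether libraries of a group came from different cultures. All libraries are of 1 cell line.

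SUDHL5 was derived from a human large B-cell lymphoma that resembles germinal centre B cells. CDK-TCIP1 joins a ligand of BCL6 to a ligand of the kinase CDK9, so that both proteins can be held by 1 molecule. BCL6 is a transcriptional repressor that maintains germinal centre B cells and silences genes of cell death, cell cycle arrest and differentiation. CDK9 and a T-type cyclin form P-TEFb, the kinase that releases paused RNA polymerase II into elongation, and the 7SK particle with HEXIM proteins holds P-TEFb inactive. Blocking CDK9 is known to lower short-lived mRNAs first, among them MYC and MCL1.

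The 3 libraries at 100 nM held 20672334, 18625628 and 17531260 estimated counts, and the 4 control libraries 19014666 to 22530380. Replicate 1 at 100 nM lay apart from the other two. On the second principal component of the 2 h libraries it was at -64.7, against -2.45 and -1.10 for replicates 2 and 3 and -17.8 to 27.2 for all other 2 h libraries. Of the called genes with a mean log2 CPM of 2 or more, it was the lowest of the 3 in 57.3% of those lower and the highest in 64.5% of those higher. CPM are counts scaled to library size with TMM factors, which were 0.880 to 0.939 at 100 nM and 1.018 to 1.041 in the controls. Genes of the mitochondrial chromosome took 7.03 to 7.87% of the counts at 100 nM and 5.53 to 6.72% in the controls. B cell markers summed to 5015 to 5587 CPM at 100 nM and 3902 to 4291 CPM in the controls. Myeloid markers summed to 1.81 to 2.51 CPM at 100 nM and 1.34 to 1.81 CPM in the controls, with 4 of 10 at 0 in all libraries at 100 nM and as many in all controls. T and NK cell markers summed to 57.9 to 65.0 CPM at 100 nM and 63.0 to 70.5 CPM in the controls, erythroid markers to 1.78 to 3.02 CPM at 100 nM and 4.58 to 6.18 CPM in the controls, and epithelial and fibroblast markers to 57.4 to 65.7 CPM at 100 nM and 48.3 to 54.6 CPM in the controls. At 0 in all 3 libraries at 100 nM and in all 4 controls were 2 and 1 of 11 T and NK cell markers, 3 and 2 of 7 erythroid and 4 and 2 of 13 epithelial and fibroblast ones. Of 8 B cell markers 4 rose, such as CD74 (0.59 ± 0.04 on the log2 scale), and 1, CD79B (-0.40 ± 0.07), fell. The part of these differences in the results was not tested.

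At 100 nM, RNAs that control cells barely contain appeared, short-lived and stress-response mRNAs fell, and the mRNAs of ribosomal proteins took a larger share. Of 17743 genes tested, 7959 (44.9%) passed an adjusted p of 0.05 in edgeR's quasi-likelihood test with Benjamini-Hochberg adjustment, and these are the genes described as called. They divide into 3903 higher (22.0%) and 4056 lower (22.9%) at 100 nM. Changes of 2-fold or more were called in 1005 genes upward and 974 downward. Most of the upward ones, 841, had a mean log2 CPM under 2. Among better expressed genes, 164 rose and 552 fell by 2-fold or more. Without replicate 1, 7025 genes were called, of which 6749 were also called with it, 0 of them with the opposite sign. With library totals in place of TMM factors, a scaling chosen after seeing the data, 2494 genes were called higher and 5558 lower, so that 31.0% of the calls were upward, against 49.0% with TMM. That scaling placed the median change of all genes at -0.16 on the log2 scale, against 0.01 with TMM. Levels are relative in either case, and in bulk RNA fewer cells and less RNA per cell cannot be told apart.

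Each reference was also taken alone. The genes called were 6664 (37.6%) against Neg1, 7057 (39.8%) against Neg2 and 7550 (42.6%) against DMSO at 4 h, and 5484 genes were called with 1 sign in all of these. Neg1 against Neg2 gave 0 called genes by edgeR, with 1126 at an unadjusted p under 0.05.

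**Figure D1:**
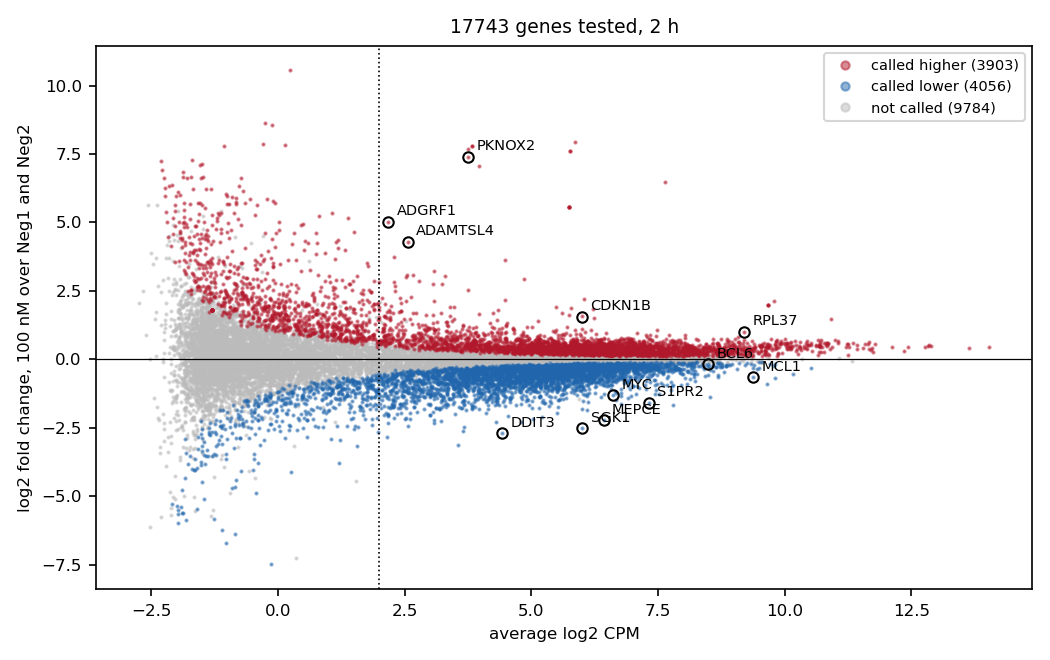
Log2 fold change of 100 nM over the pooled controls (vertical axis) against mean log2 CPM (horizontal axis) for 17743 genes, coloured by call, with named genes circled and a dotted line at a mean log2 CPM of 2. Of the 2-fold rises, 841 of 1005 lie left of that line, and right of it 552 genes fell and 164 rose by 2-fold or more.

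The coding genes that rose most were low or nearly absent in control cells. PKNOX2, a homeodomain transcription factor, had 74.2, 56.2 and 46.7 CPM at 100 nM, against 0.444, 0.669, 0 and 0.398 CPM in the controls (Neg1 first, then Neg2), a log2 fold change of 7.40 ± 0.30 (± SE, adjusted p = 6.75e-16, edgeR). ADGRF1, an adhesion G protein-coupled receptor, had 25.5, 17.7 and 12.8 CPM at 100 nM and 0.691, 0.618, 0.252 and 0.707 CPM in the controls (5.03 ± 0.29). Replicate 1 was the highest library for both genes, and no control approached the lowest 100 nM library. ADAMTSL4, a secreted protein of the matrix, had 9.69, 12.7 and 11.02 CPM at 100 nM and 0.197, 1.24, 0.302 and 0.574 CPM in the controls (4.29 ± 0.32), again without overlap. The next rises on the log2 scale were ENSG00000266086 (3.62 ± 0.23), CCDC17 (3.21 ± 0.22), KIFBP, a kinesin-binding protein (3.10 ± 0.20), the germ cell gene GCNA (3.06 ± 0.15) and APOLD1 (2.92 ± 0.17). MASP2, a protease of the lectin pathway of complement, rose by 2.85 ± 0.21, PEX5L by 2.83 ± 0.25, the RNA-binding protein gene RBPMS by 2.76 ± 0.19 and the lipoxygenase gene ALOX12 by 2.68 ± 0.24. Absence of overlap was a condition for naming these 12 genes, and 21.2% of all genes met it upward and 22.7% downward. In mean TPM, which scale counts by transcript length and take no TMM factors, each of these 12 genes rose by less. ALOX12 had 3.83 TPM at 100 nM and 2.27 in the controls, RBPMS 9.86 and 4.66, and APOLD1 10.9 and 4.38.

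**Figure D2:**
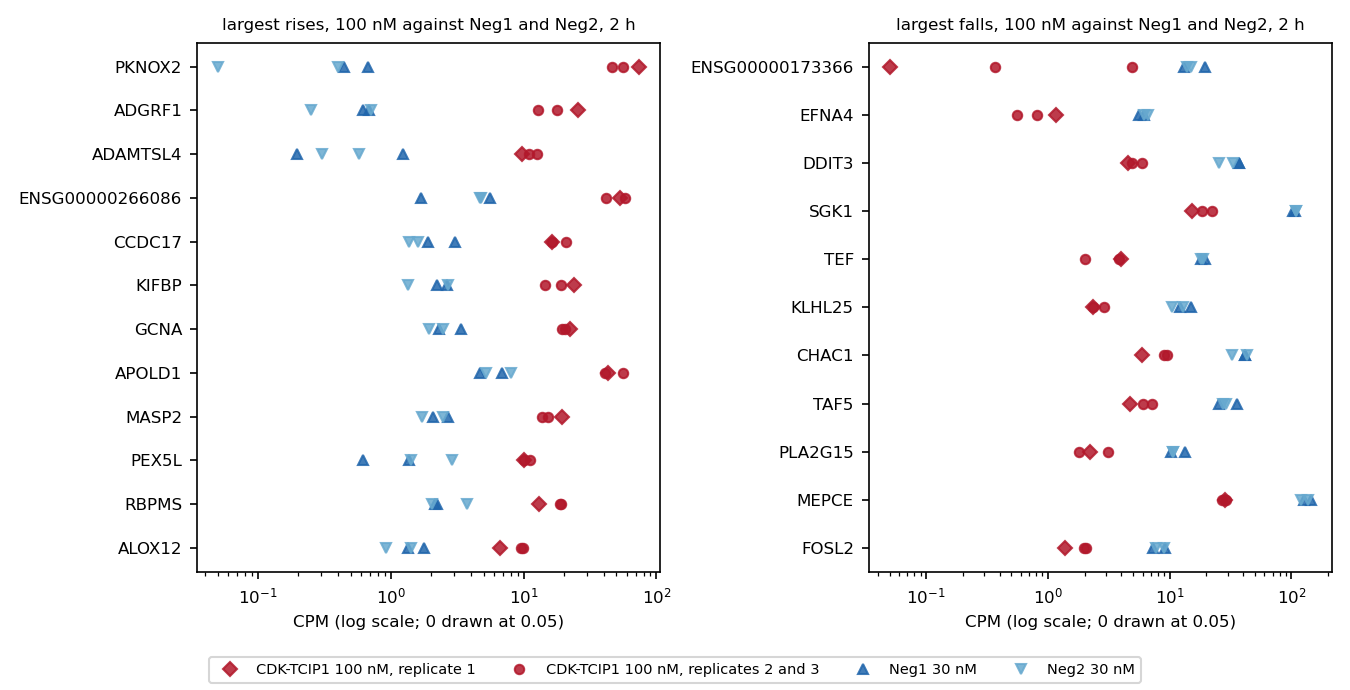
CPM (log axis, 0 drawn at 0.05) in each library for 12 coding genes with the largest rises and 11 with the largest falls. Red marks are 100 nM, with replicate 1 as a diamond, and blue marks are Neg1 and Neg2. PKNOX2 spans 46.7 to 74.2 CPM at 100 nM and 0 to 0.669 CPM in the controls, and SGK1 15.3 to 22.1 CPM and 103 to 109.5 CPM.

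Several of these genes lie close behind an expressed gene. On GRCh38, KIFBP (chromosome 10, 68988721 to 69043544) starts 3648 bases beyond DDX21 on the same strand, GCNA (chromosome X, 71578411 to 71613583) 2514 bases beyond OGT, and APOLD1 (chromosome 12, 12725917 to 12829975) 3546 bases beyond CDKN1B. The log2 fold change was 0.14 for DDX21 and 0.17 for OGT, while CDKN1B rose by 1.56 ± 0.08. APOLD1 also overlaps DDX47, KIFBP overlaps MED28P1 and RBPMS overlaps ENSG00000279041, each on the same strand, so reads can be shared. MASP2 overlaps AL109811.3 on the opposite strand, which rose by 3.01 ± 0.24, and reads of the pair cannot be told apart if counting did not use strand. Expressed genes on the opposite strand also lie downstream of MASP2 (TARDBP, 103 bases away) and CCDC17 (NASP, 1140 bases). The same holds for PEX5L (USP13, 5557 bases) and RBPMS (GTF2E2, 6057 bases). Whether reads of those genes reach into the named ones was not tested. PKNOX2 (chromosome 11, 125164687 to 125433389) and ADGRF1 (chromosome 6, 46997703 to 47042363) overlap no other tested gene. ENSG00000266086 (chromosome 17, 57989038 to 58007246) shares its strand and part of its span with SRSF1, so its reads cannot be assigned with certainty. ADAMTSL4 (chromosome 1, 150549369 to 150560937, plus strand) and MCL1 (150574551 to 150579738, minus strand) point toward each other. In the gap between them, the 7SL pseudogene RN7SL600P had 0.557, 0.586 and 1.11 CPM at 100 nM and 0, 0.154, 0 and 0 CPM in the controls. RN7SL473P had 0.279, 0.703 and 0.369 CPM at 100 nM and was at 0 in all 4 controls. Both were picked after their values were seen, and copies of 7SL share reads.

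Position showed the same direction over many low genes. Of 1041 genes with a mean log2 CPM under 2 that start within 10 kb beyond an expressed coding gene on its strand, 21.9% were called higher and 4.90% lower (median 0.41). Of the 6616 other low genes it was 11.1% and 7.01% (median 0.10). The median of the first class was 0.42 without replicate 1 and 0.40 at 30 nM.

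The steepest rises were in non-coding RNAs, which were picked after their values were seen. LINC00273 had 281, 232 and 233 CPM at 100 nM, against 2.07, 2.78, 0.151 and 0.663 CPM in the controls (7.93 ± 0.20, adjusted p = 1.11e-19, edgeR). MIR663AHG, a microRNA host gene, had 945, 833 and 647 CPM at 100 nM and 11.7, 9.42, 7.19 and 8.57 CPM in the controls (6.47 ± 0.17). The 5.8S ribosomal RNA gene RNA5-8SN1, a part of the ribosomal DNA repeat, had 266, 205 and 175 CPM at 100 nM and 7.06, 4.99, 2.31 and 4.33 CPM in the controls (5.58 ± 0.16). All 3 libraries at 100 nM lay far above every control for each of these RNAs. Absence of overlap was a condition for picking them, and 21.2% of all genes met it upward. The 4 listed copies of the 5.8S gene had identical values, as had 2 copies of MIR3648 (7.62 ± 0.20), so reads were shared evenly among copies that cannot be told apart. On chromosome 21 the copies MIR3648-1 and RNA5-8SN2 overlap the same tested gene, ENSG00000278996, so their rises may not be separate. MIR663AHG averaged 9.21 CPM in the controls, 106 at 10 nM, 321 at 30 nM and 808 at 100 nM. LINC00273 averaged 1.42, 24.5, 95.1 and 249 CPM over the same series. Ribosomal RNA mostly lacks a poly(A) tail, and these libraries were poly(A)-enriched.

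The deepest falls among coding genes included regulators of stress and of transcription. SGK1, a kinase induced by stress and glucocorticoids, had 15.3, 22.1 and 18.6 CPM at 100 nM, against 103, 108, 109.5 and 108 CPM in the controls (fell by 2.52 ± 0.10). DDIT3, which encodes the stress factor CHOP, had 4.57, 4.92 and 5.91 CPM at 100 nM and 36.9, 37.4, 25.4 and 33.4 CPM in the controls (fell by 2.69 ± 0.13). Neither gene's groups overlap, which was a condition for naming the largest falls and was met downward by 22.7% of all genes. MEPCE, which caps 7SK RNA, had 28.7, 28.9 and 26.8 CPM at 100 nM and 145, 126, 119 and 136 CPM in the controls (fell by 2.22 ± 0.08), with replicate 1 in the middle of its group. Other falls were in the ephrin gene EFNA4 (-2.83 ± 0.26), the bZIP factor gene TEF (-2.49 ± 0.19) and KLHL25 (-2.32 ± 0.15). They were followed by CHAC1, which degrades glutathione (-2.29 ± 0.13), the TFIID subunit gene TAF5 (-2.29 ± 0.16), the phospholipase gene PLA2G15 (-2.23 ± 0.20) and the AP-1 gene FOSL2 (-2.20 ± 0.21). The call of FOSL2 was lost with length-scaled counts. ENSG00000173366 had 0, 4.86 and 0.369 CPM at 100 nM and 19.6, 13.2, 13.8 and 15.1 CPM in the controls (fell by 3.14 ± 0.85). It overlaps TLR9 and TWF2 on its strand, as EFNA4 overlaps EFNA4-EFNA3, so reads can be shared. Same-strand overlaps among genes named further on include S1PR2 with DNMT1, PABPN1 with BCL2L2-PABPN1, MCL1 with ADAMTSL4-AS1, CDKN1B with AC008115.3, FOXO1 with LINC00598, CLK4 with RN7SKP70 and CASP2 with RN7SL535P. DDIT3 overlaps MARS1 and MBD6, MEPCE overlaps ZCWPW1, and PPP1R10 overlaps MRPS18B, each on the opposite strand, and whether counting used strand is not given in the sources used here. HSPA1B, CDK11B and the ribosomal protein genes have near-identical copies, so their values are likewise uncertain.

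Genes of the elongation machinery moved both ways. Of 32 genes of P-TEFb, the 7SK particle and the super elongation complex, 10 rose and 16 fell (median -0.20, against 0.01 over all genes tested). For lists of well expressed genes the nearer background is that of coding genes with a mean log2 CPM of 2 or more, of which 29.2% were called higher and 35.8% lower. With library totals 4 rose and 18 fell. CDK9 had 41.0, 58.2 and 48.7 CPM at 100 nM and 45.3, 47.2, 45.0 and 44.4 CPM in the controls and was not called (0.12 ± 0.08, adjusted p = 0.283, edgeR). Replicate 1 lay below every control and replicates 2 and 3 above, and without replicate 1 the change was 0.23 (adjusted p = 0.0187, edgeR). CDK9 stood 0.60 above the controls at 10 nM and 0.52 at 30 nM, and 100 nM was below 30 nM (-0.41, adjusted p = 0.00199, edgeR). The cyclin genes CCNT1 (0.42 ± 0.07) and CCNT2 (0.46 ± 0.06) rose.

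HEXIM1, an inhibitor of P-TEFb, had 13.7, 10.2 and 8.25 CPM at 100 nM and 24.7, 18.7, 20.4 and 23.1 CPM in the controls (fell by 1.01 ± 0.13), and its relative HEXIM2 fell by 1.50 ± 0.21. For HEXIM1 the log2 fold change was -1.21 at 10 nM and -1.11 at 30 nM, and the difference of 100 nM from 30 nM was 0.09 (adjusted p = 0.731, edgeR). AFF1, a scaffold of the super elongation complex, had 3.12, 5.68 and 4.31 CPM at 100 nM and 2.22, 3.66, 3.22 and 1.72 CPM in the controls. It rose by 0.70 ± 0.22, with overlapping groups, and its call was lost under some alternatives, among them Neg1 alone as the reference and library totals. POLR2A, the catalytic subunit of RNA polymerase II, had 214, 258 and 251 CPM at 100 nM and 349, 309, 348 and 318 CPM in the controls (fell by 0.46 ± 0.07). Of 12 polymerase subunits 8 rose, such as POLR2L (0.60 ± 0.15), and 2 fell (median 0.28), or 4 and 3 with library totals. The call of POLR2L was lost against Neg1 alone (0.45, adjusted p = 0.0639, edgeR). Of 21 transcriptional kinases, L cyclins and CLK kinases, 9 were higher (42.9%) and 8 lower (38.1%), against 29.2% and 35.8% of expressed coding genes. With library totals 7 rose and 10 fell. With length-scaled counts it was 6 and 5. CCNL2 (0.75 ± 0.07) and CDK11B (0.68 ± 0.05) rose, while CLK4, a kinase of splicing factors (-1.04 ± 0.13), and CDK7, the kinase of TFIIH (-0.62 ± 0.10), fell.

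Immediate early and other short-lived mRNAs fell as a group. Of 48 tested, 34 fell and 2 rose, or 31 and 4 without replicate 1. The median of the list was -0.32 at 10 nM, -0.51 at 30 nM and -0.81 at 100 nM. MYC, a transcription factor of growth, had 45.9, 58.2 and 58.7 CPM at 100 nM and 130.0, 146, 129 and 138 CPM in the controls (fell by 1.32 ± 0.09, adjusted p = 6.16e-12, edgeR). Every 100 nM library was below every control, and replicate 1 was the lowest. The log2 fold change of MYC was -0.76 at 10 nM and -0.97 at 30 nM, and 100 nM was below 30 nM (-0.35, adjusted p = 0.00709, edgeR). The deepest fitted falls of the list were in 2 genes near the limit of detection: ID1 had 0, 0.0585 and 0.0615 CPM at 100 nM and 0.302 to 0.839 CPM in the controls, and IER5L 0.0557 to 0.246 CPM at 100 nM and 0.642 to 0.927 CPM in the controls. The call of ID1 was lost under several alternatives, leaving out any 1 of the 100 nM libraries among them. The kinase gene PIM1 rose by 0.31 ± 0.06, but its mean TPM was 28.6 at 100 nM and 30.5 in the controls. IER2 rose by 0.14 ± 0.05 with overlapping groups, and its change was -0.03 with library totals.

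MYC targets did not move in 1 direction. Of 35 (median -0.04), 13 rose (37.1%) and 12 fell (34.3%), against 29.2% and 35.8% of the expressed coding genes given above. With library totals it was 4 and 20, and with length-scaled counts 8 and 12. FBL, the nucleolar methyltransferase fibrillarin, rose by 0.49 ± 0.06, and POLR1B, a subunit of RNA polymerase I, fell by 1.28 ± 0.08. In mean TPM FBL did not rise, with 407 at 100 nM and 416 in the controls.

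Genes of the integrated stress response, which ATF4 and CHOP drive when translation initiation is limited, fell: 20 of 28 fell and 3 rose, the same counts as without replicate 1. The median was -0.22 at 10 nM, -0.43 at 30 nM and -0.73 at 100 nM. ATF3 had 0.167, 0.585 and 0.185 CPM at 100 nM and 1.73, 1.70, 2.01 and 1.72 CPM in the controls (fell by 2.49 ± 0.42). The enzyme genes SHMT2 (0.55 ± 0.06) and PHGDH (0.32 ± 0.06), of 1-carbon and serine metabolism, rose, the call of PHGDH being lost with length-scaled counts. ATF4 itself, singled out after its value was seen, was not called (-0.12 ± 0.06). Heat shock genes divided, with 8 of 18 higher, such as HSP90AB1 (0.43 ± 0.04). The 9 lower ones included BAG3 (-1.43 ± 0.20) and HSPA1B (-1.26 ± 0.13). With library totals it was 4 and 10, and with length-scaled counts 4 and 9.

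**Figure D3:**
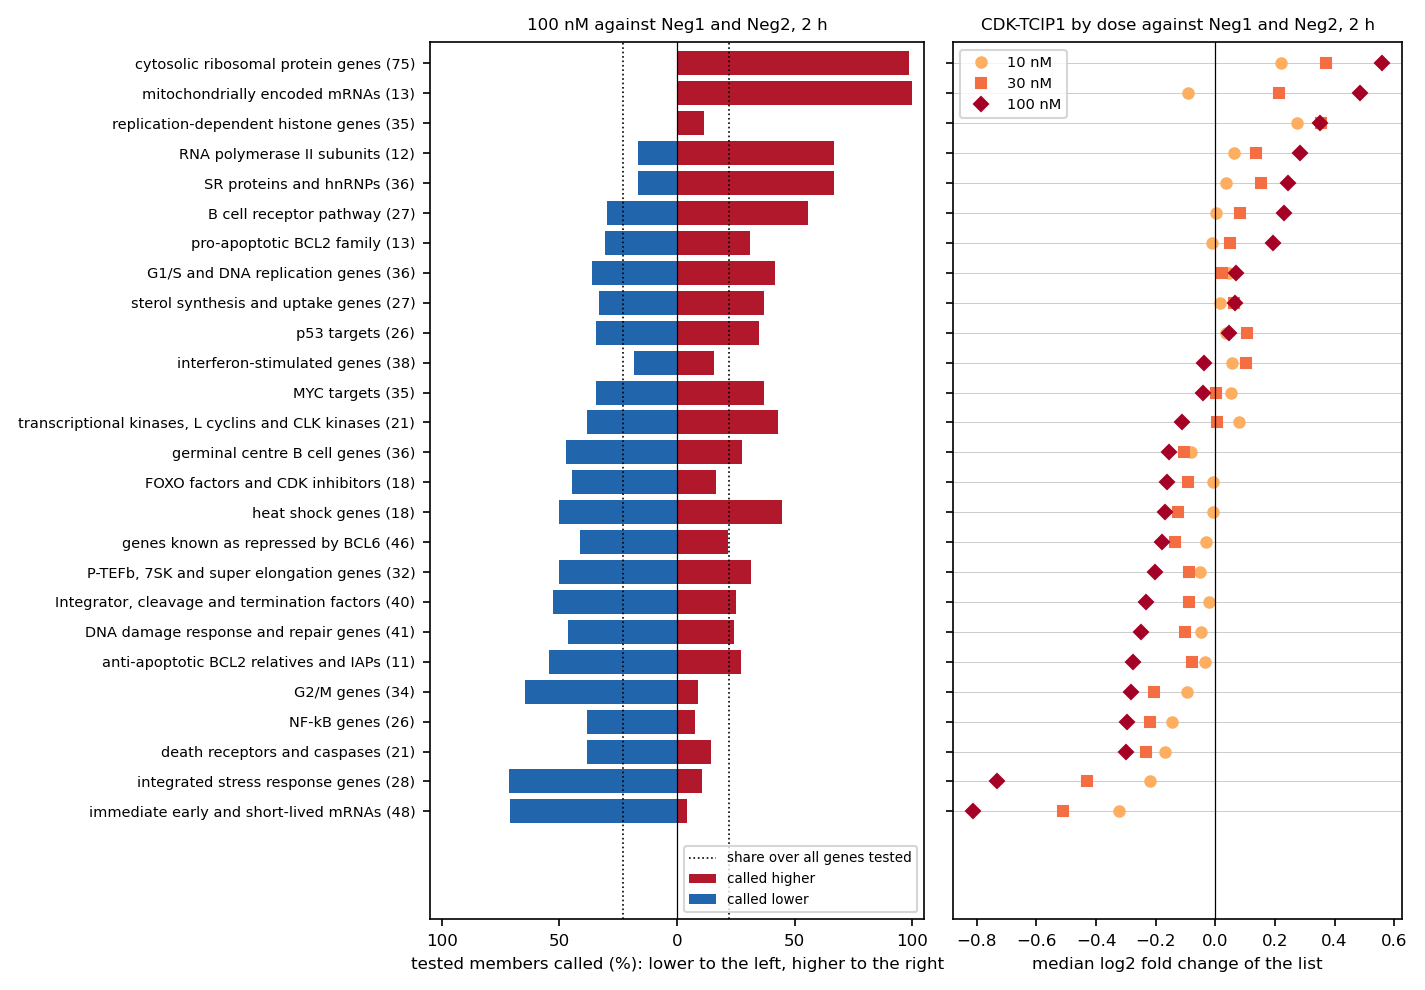
Share of the tested members of each gene list called higher or lower at 100 nM (left, percent, with dotted lines at 22.0% and 22.9% over all genes tested) and the median log2 fold change of each list at 10, 30 and 100 nM (right), all against the same controls. The medians of the immediate early and stress response lists are -0.81 and -0.73 at 100 nM, and that of ribosomal protein genes is 0.56.

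Cell death genes moved both ways. MCL1, an anti-apoptotic relative of BCL2, had 384, 454 and 456 CPM at 100 nM and 675, 694, 662 and 664 CPM in the controls (fell by 0.64 ± 0.05, adjusted p = 3.27e-10, edgeR). The groups are far apart, and without replicate 1 the change was -0.57. Its log2 fold change was 0.22 at 10 nM and -0.14 at 30 nM, and 100 nM was below 30 nM (-0.51, adjusted p = 6.95e-07, edgeR). Of 11 anti-apoptotic genes 6 fell, such as BIRC3, an inhibitor of apoptosis (-0.65 ± 0.07), and 3 rose. Without replicate 1 it was 4 and 2, with library totals 6 and 0, and with length-scaled counts 3 and 3. BIRC5, which encodes survivin, rose by 0.24 ± 0.07, a call lost without replicate 1, where the change was 0.15 (adjusted p = 0.0941, edgeR). Its mean TPM was 87.2 at 100 nM and 99.0 in the controls. BCL2 had 3.06, 2.75 and 2.59 CPM at 100 nM and 2.67, 4.17, 2.47 and 2.74 CPM in the controls and was not called (-0.09 ± 0.23).

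Among 13 pro-apoptotic genes 4 rose and 4 fell, 30.8% each, against 29.2% and 35.8% of the expressed coding genes given above. It was 4 and 2 without replicate 1, and also with length-scaled counts. PMAIP1, which encodes NOXA, had 77.7, 85.8 and 94.2 CPM at 100 nM and 52.8, 63.9, 62.0 and 64.5 CPM in the controls (rose by 0.50 ± 0.07), and BAX, an effector at the mitochondrial membrane, rose by 0.43 ± 0.06. BMF had 5.46, 8.31 and 7.08 CPM at 100 nM and 13.9, 11.9, 14.2 and 14.9 CPM in the controls (fell by 0.98 ± 0.14). BCL2L11, which encodes BIM, had 109, 139.8 and 136 CPM at 100 nM and 138, 145, 152 and 143 CPM in the controls (fell by 0.17 ± 0.06). That call rested on replicate 1, without which the change was -0.07 (adjusted p = 0.349, edgeR). BBC3, which encodes PUMA, was not called (0.21 ± 0.14), and HRK fell by 1.20 ± 0.41 at levels of 0.410 to 0.862 CPM at 100 nM and 0.642 to 2.01 CPM in the controls. The call of HRK was lost without replicate 1 of the 100 nM group, and its sign changed with length-scaled counts.

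Of 21 death receptor and caspase genes 3 rose (14.3%) and 8 fell (38.1%, median -0.30), against 29.2% and 35.8% of the expressed coding genes given above. TNFRSF10D, a decoy receptor for TRAIL, had 14.9, 15.7 and 15.3 CPM at 100 nM and 4.29, 4.43, 3.67 and 3.93 CPM in the controls (rose by 1.90 ± 0.12). TNFRSF10B, a TRAIL receptor that signals death, rose by 0.38 ± 0.07. The kinase gene RIPK1 (-1.17 ± 0.10) and the initiator caspase gene CASP2 (-0.92 ± 0.06) fell. FAS, a death receptor, had 6.46, 5.44 and 5.54 CPM at 100 nM and 9.87, 8.75, 7.95 and 8.44 CPM in the controls (fell by 0.59 ± 0.15). Its log2 fold change was 0.22 at 10 nM and 0.03 at 30 nM, and 100 nM was below 30 nM (-0.61, adjusted p = 0.00632, edgeR). It overlaps ACTA2 on the opposite strand, which rose by 1.87 ± 0.39, and its call was lost with length-scaled counts.

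The p53 targets rose and fell in equal number, 9 and 9 of 26 (median 0.05). That is 34.6% each way, against 29.2% higher and 35.8% lower among the expressed coding genes given above. With library totals it was 7 and 11, and with length-scaled counts 9 and 5. ZMAT3 rose by 0.73 ± 0.05 and the repair factor gene DDB2 by 0.57 ± 0.07, while the antiproliferative gene BTG2 (-1.13 ± 0.08) and the kinase gene PLK3 (-1.13 ± 0.17) fell. CDKN1A, which encodes the CDK inhibitor p21, fell by 0.37 ± 0.11, but its change was 0.24 with length-scaled counts. MDM2, the ubiquitin ligase of p53, had 185, 186 and 198 CPM at 100 nM and 238, 229, 263 and 231 CPM in the controls (fell by 0.34 ± 0.05), a call also lost with length scaling. Its log2 fold change was 0.02 at 10 nM and -0.01 at 30 nM, and 100 nM was below 30 nM (-0.33, adjusted p = 9.42e-05, edgeR). Of 18 FOXO factors and CDK inhibitors 3 rose (16.7%) and 8 fell (44.4%), or 2 and 10 with library totals. With length-scaled counts it was 3 and 4. FOXO1 (-0.93 ± 0.06) and FOXO3 (-0.52 ± 0.12) fell, and CDKN2A, which encodes p16, rose by 0.65 ± 0.08.

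**Figure D4:**
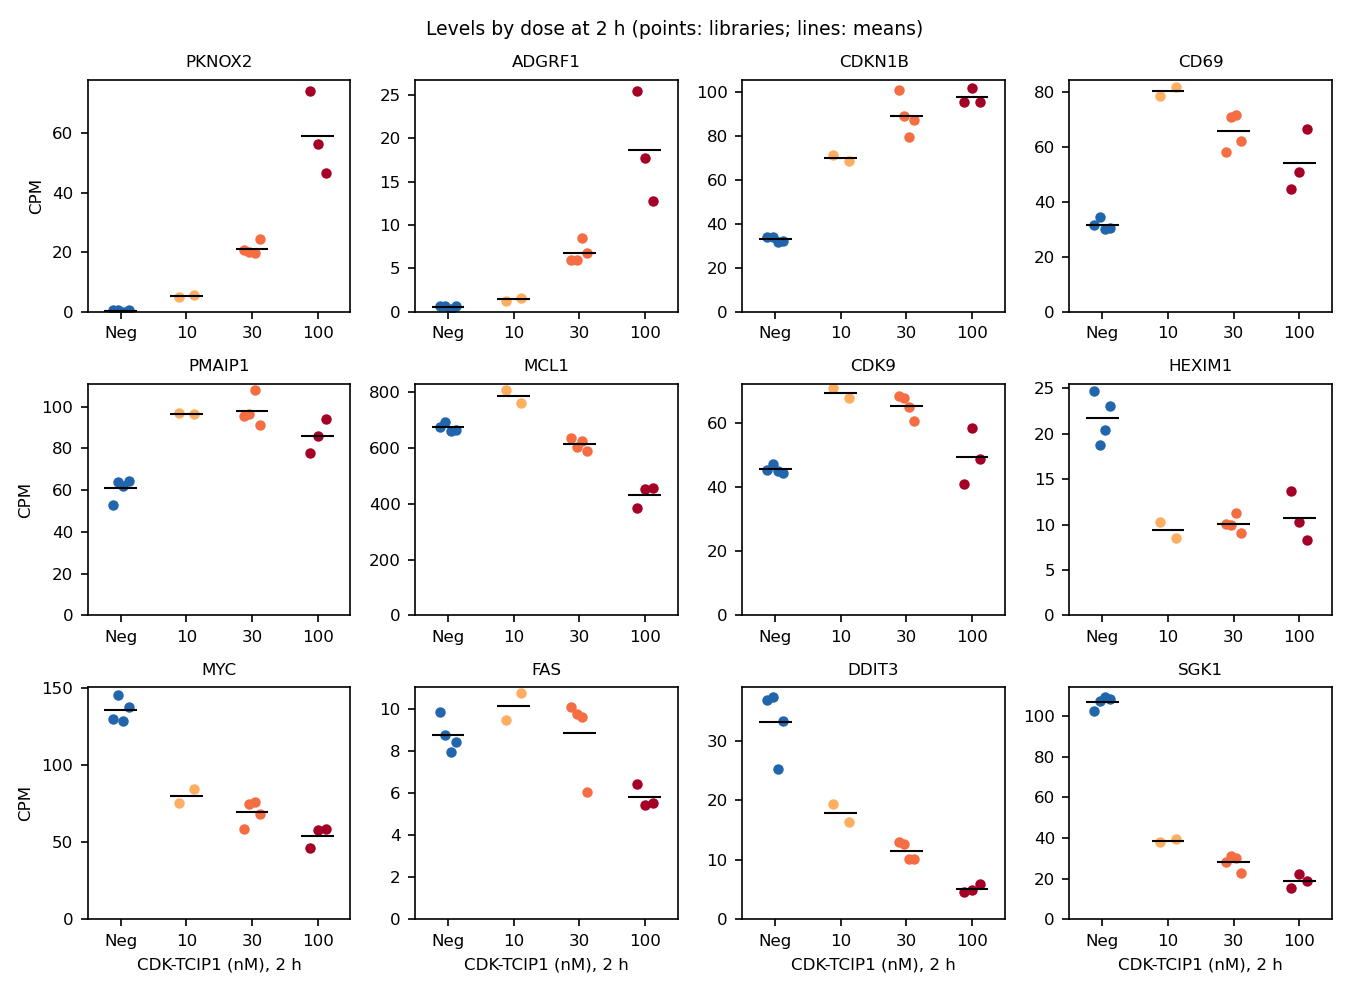
CPM of 12 genes in each 2 h library (points) with group means (lines), for the pooled controls and CDK-TCIP1 at 10, 30 and 100 nM. PKNOX2 is highest at 100 nM (46.7 to 74.2 CPM) and SGK1 lowest there (15.3 to 22.1 CPM), while the log2 fold change of MCL1 over the controls is 0.22 at 10 nM and -0.64 at 100 nM.

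BCL6 had 311, 341 and 355 CPM at 100 nM and 407, 387, 369 and 367 CPM in the controls (fell by 0.19 ± 0.04, adjusted p = 0.000778, edgeR). All 3 libraries lay below the controls, and the log2 fold change was -0.19 at 10 nM and -0.20 at 30 nM. Of 46 genes known as repressed by BCL6, 10 rose (21.7%) and 19 fell (41.3%, median -0.18). Over all genes tested it was 22.0% and 22.9%, and among the expressed coding genes given above 29.2% and 35.8%. With library totals 6 of the list rose and 24 fell. With length-scaled counts it was 6 and 13. CDKN1B, which encodes the CDK inhibitor p27, had 95.2, 102 and 95.2 CPM at 100 nM and 33.9, 34.0, 31.9 and 32.3 CPM in the controls (rose by 1.56 ± 0.08). CD69, a marker of lymphocyte activation, had 44.8, 50.9 and 66.7 CPM at 100 nM and 31.8, 34.7, 30.0 and 30.4 CPM in the controls (rose by 0.77 ± 0.10). CDKN1B stood 1.08 above the controls at 10 nM and 1.43 at 30 nM, whereas CD69 stood 1.34 above them at 10 nM and 1.05 at 30 nM. The difference of CD69 between 100 nM and 30 nM missed the threshold (-0.28, adjusted p = 0.0636, edgeR). The interferon receptor gene IFNAR1 fell by 1.02 ± 0.09. The receptor gene TLR4 fell by 2.23 ± 0.61 at low levels of 0.0615 to 0.351 CPM at 100 nM and 0.444 to 1.36 CPM in the controls, a call lost against DMSO and with length-scaled counts. PRDM1, the regulator of plasma cells, had 0.446, 0.410 and 1.11 CPM at 100 nM and 0.494, 0.360, 0.252 and 0.221 CPM in the controls and was not called (1.02 ± 0.68).

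BCL6 is known to bind a core here written TTCCTAGAA, and more loosely TTCCNNGAA. Both were searched on both strands of the RefSeq promoter windows of GRCh38.p14, 250 bases before to 50 after each start, and every match to the first form also matches the second. The loose form was in 4.4% of 11479 windows of tested genes, in 3.68% of 2773 called higher and in 4.4% of 3113 called lower. Over all 27305 windows of the table it was 4.58%. The strict form was in 0.235% of tested genes, 0.216% of those higher and 0.128% of those lower, and in 0.403% of all windows. These are matches of letters and not binding sites. Shown are the windows of BCL6 (chr3:187745419-187745718), IRF1 (chr5:132490724-132491023) and MASP2 (chr1:11047190-11047489), genes described here whose windows hold a match. Windows of the other described genes are not shown, so these do not tell how often described genes hold one. All are on the minus strand and written 5′ to 3′, with matches in capitals.
BCL6: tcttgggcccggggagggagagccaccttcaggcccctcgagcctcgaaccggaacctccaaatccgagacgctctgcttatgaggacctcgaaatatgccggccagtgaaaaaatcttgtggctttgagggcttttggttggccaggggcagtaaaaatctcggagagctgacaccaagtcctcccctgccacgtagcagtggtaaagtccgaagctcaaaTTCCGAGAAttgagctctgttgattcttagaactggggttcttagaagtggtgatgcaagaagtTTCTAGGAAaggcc
IRF1: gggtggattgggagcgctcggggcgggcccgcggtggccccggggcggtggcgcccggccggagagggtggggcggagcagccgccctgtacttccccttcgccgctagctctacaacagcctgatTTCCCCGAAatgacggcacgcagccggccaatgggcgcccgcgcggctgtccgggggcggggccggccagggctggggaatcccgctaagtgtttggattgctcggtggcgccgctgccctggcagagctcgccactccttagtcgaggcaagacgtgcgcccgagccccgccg
MASP2: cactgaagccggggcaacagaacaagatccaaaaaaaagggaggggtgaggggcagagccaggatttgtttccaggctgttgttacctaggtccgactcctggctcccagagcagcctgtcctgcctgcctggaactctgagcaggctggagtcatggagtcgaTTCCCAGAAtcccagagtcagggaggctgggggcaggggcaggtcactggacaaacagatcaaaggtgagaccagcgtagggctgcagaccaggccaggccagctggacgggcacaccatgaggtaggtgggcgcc

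Genes of B cell identity and signalling also divided. The shares below compare with 29.2% higher and 35.8% lower among the expressed coding genes given above, and 22.0% and 22.9% over all genes tested. Of 36 germinal centre genes 10 rose (27.8%) and 17 fell (47.2%, median -0.15), or 6 and 21 with library totals. S1PR2, a receptor that keeps B cells in the follicle, had 65.8, 87.0 and 77.3 CPM at 100 nM and 243, 212, 238 and 229 CPM in the controls (fell by 1.59 ± 0.07). GCSAM fell by 1.11 ± 0.08 and the glycosylase gene NEIL1 rose by 0.71 ± 0.10. Of 27 B cell receptor genes 15 rose (55.6%), such as the kinase gene PRKCB (0.51 ± 0.08), and 8 fell (29.6%), such as the PI3K subunit gene PIK3R1 (-1.45 ± 0.10). With library totals it was 9 and 10. Of 26 NF-kB genes 10 fell (38.5%), such as CD83 (-1.74 ± 0.11) and the cytokine gene LTA (-1.33 ± 0.20), and 2 rose (7.69%). With library totals it was 13 and 0. Of 38 interferon-stimulated genes 6 rose (15.8%), such as ISG15 (0.58 ± 0.13), and 7 fell (18.4%), or 5 and 12 with library totals. IRF1, an interferon-induced transcription factor, had 10.9, 17.2 and 13.7 CPM at 100 nM and 42.5, 38.7, 39.9 and 36.8 CPM in the controls (fell by 1.50 ± 0.12).

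SR protein and hnRNP genes, which act in splicing, rose in 24 of 36 cases and fell in 6 (median 0.24). With library totals it was 14 and 10, and with length-scaled counts 22 and 3. HNRNPC rose by 0.48 ± 0.05 and SRSF9 by 0.50 ± 0.07, while SRSF8 (-0.72 ± 0.08) and SRSF6 (-0.58 ± 0.06) fell. Of 40 genes of the Integrator and of cleavage and termination 21 fell and 10 rose (median -0.23), or 26 and 7 with library totals. PPP1R10, a regulator of protein phosphatase 1, had 12.9, 16.7 and 17.4 CPM at 100 nM and 58.9, 56.5, 65.9 and 63.0 CPM in the controls (fell by 1.96 ± 0.09). The poly(A) polymerase gene PAPOLG fell by 1.64 ± 0.11, and PABPN1, which binds poly(A) in the nucleus, rose by 0.60 ± 0.08.

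Cell cycle and repair genes moved both ways. Of 34 G2/M genes 22 fell, such as the spindle checkpoint kinase gene TTK (-1.11 ± 0.10), and 3 rose, or 30 and 0 with library totals. Of 36 G1/S and replication genes 15 rose (41.7%), such as MCM5 of the replicative helicase (0.54 ± 0.04), and 13 fell (36.1%). With library totals it was 9 and 18. The cyclin gene CCNE2 had 12.4, 12.6 and 12.9 CPM at 100 nM and 37.3, 40.6, 39.9 and 42.9 CPM in the controls (fell by 1.67 ± 0.08). Of 41 DNA damage response and repair genes 10 rose (24.4%) and 19 fell (46.3%), or 6 and 27 with library totals. FANCA, of the Fanconi core complex, rose by 0.63 ± 0.07 and its translocase FANCM fell by 1.66 ± 0.12. Of 27 sterol genes 10 rose, such as LSS (0.67 ± 0.07), and 9 fell, such as MVK (-0.53 ± 0.10), whose call was lost with length-scaled counts. Of the sterol genes 37.0% were thus higher and 33.3% lower, against 29.2% and 35.8% of the expressed coding genes given above. With library totals 6 rose and 11 fell.

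Ribosomal protein mRNAs rose almost as 1 group, 74 of 75, and 74 without replicate 1 and 74 with library totals. Their median was 0.22 at 10 nM, 0.37 at 30 nM and 0.56 at 100 nM. RPL37, of the large subunit, had 999, 925 and 776 CPM at 100 nM and 519, 429, 322 and 518 CPM in the controls (rose by 1.01 ± 0.15), and RPS29, of the small subunit, rose by 0.88 ± 0.19. The member that did not pass was RPS27 (0.03 ± 0.16). Mitochondrially encoded mRNAs rose in 13 of 13 cases (median 0.49), with MT-ND2, of complex I, up by 0.56 ± 0.05, or in 12 with library totals. Of 35 tested histone genes, whose transcripts mostly end without poly(A), 4 rose (11.4%) and 0 fell, or 2 and 0 without replicate 1. Over all genes tested 22.0% were higher, and 12.5% of those with a mean log2 CPM under 2.

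Gene structure went with the direction of change. Of 107 expressed coding genes with a single exon, 63.5% were called lower and 19.6% higher (median -0.54). Of 9380 with more exons it was 35.4% and 29.3% (median -0.04). ZNF genes, which encode zinc finger proteins, were lower in 48.2% and higher in 6.23% of 257 on chromosome 19 (median -0.43). Elsewhere in the genome 46.9% of 256 were lower. In 4 classes of equal size by gene span, divided at 14140, 33278 and 74437 bases, the shares called higher were 38.4, 30.1, 22.6 and 25.5% and those called lower 32.0, 35.8, 42.4 and 33.0%, from short to long. These classes are described without a test.

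**Figure D5:**
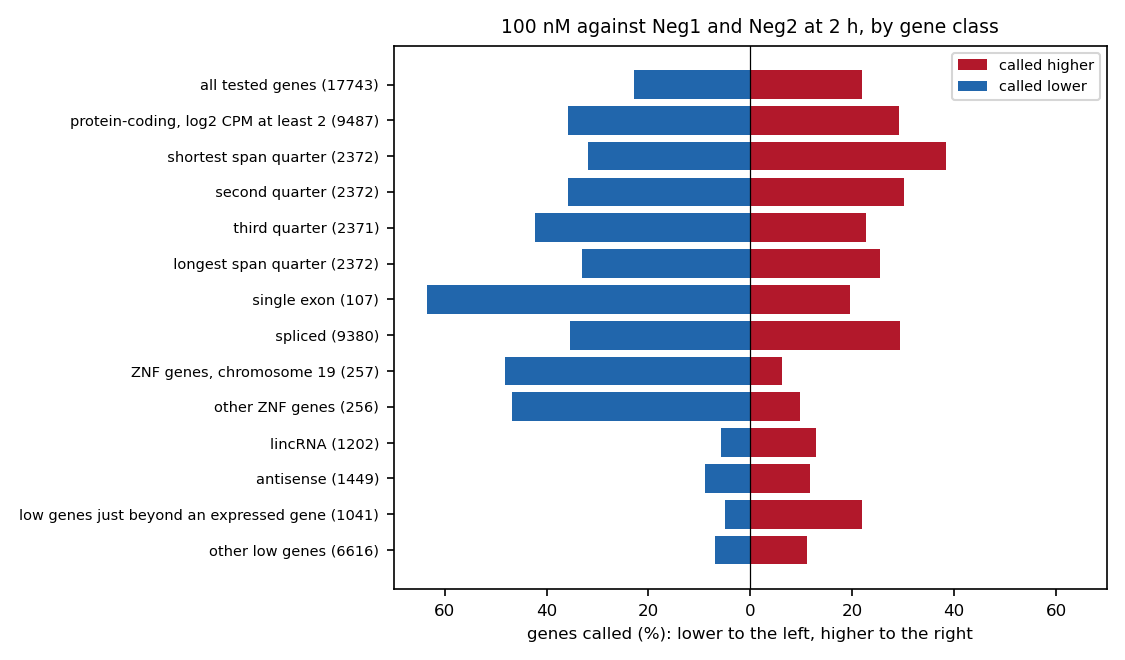
Share of genes in each class called lower or higher at 100 nM, in percent, with the number tested in brackets. Single-exon coding genes stand at 63.5% lower, and low genes just beyond an expressed gene at 21.9% higher, against 11.1% of other low genes.

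Between doses, 100 nM differed from 30 nM in 2287 genes (12.9%), 788 higher (4.44%) and 1499 lower (8.45%). The count depended on replicate 1: without it 839 genes were called, 154 higher and 685 lower, of which 821 were called in both. Against the same controls, 30 nM gave 37.1% of genes called and 10 nM 13.5%. Among coding genes with a mean log2 CPM of 2 or more, called between these doses and without overlap of their libraries, PKNOX2 (1.48), ADGRF1 (1.46), the rhomboid gene RHBDL1 (1.11), KIFBP (0.99) and CCDC78 (0.93) stood furthest above 30 nM on the log2 scale. ZBTB3 (-1.72), ZSCAN26 (-1.68), the lipid phosphatase gene PLPP6 (-1.62), EFNA4 (-1.52) and KBTBD7 (-1.36) stood furthest below. The value of ZBTB3 leans on replicate 2. It had 2.17, 0.0585 and 2.46 CPM at 100 nM, against 4.16 to 6.04 CPM at 30 nM. The difference of CCDC78 lost its call without replicate 1 (0.68, adjusted p = 0.174, edgeR). ZSCAN26, a zinc finger gene, had 1.00, 2.40 and 3.08 CPM at 100 nM and 9.58, 8.03, 8.65 and 9.23 CPM in the controls, with log2 fold changes of 0.05 at 10 nM and -0.36 at 30 nM. KBTBD7, an adaptor of a ubiquitin ligase, had 0.668, 2.52 and 2.46 CPM at 100 nM and 4.94, 4.48, 4.48 and 4.37 CPM in the controls, with log2 fold changes of 0.45 at 10 nM and 0.07 at 30 nM. Both fell below the controls at 100 nM in every library, with replicate 1 the lowest. Of the immediate early list 21 genes were lower at 100 nM than at 30 nM, or 11 without replicate 1, and of the stress response list 13, or 10. Of the ribosomal protein genes 37 were higher at 100 nM than at 30 nM, or 1 without replicate 1.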

How the data were processed

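Poly(A) RNA was sequenced in 23 libraries. Per the submitters' processing notes the tools were FastQC, cutadapt, kallisto and DESeq2, whose versions and strand setting no source used here gives. For each library the authors deposited estimated counts and TPM for 227912 transcripts. Of these, 205964 matched GENCODE 29 (GRCh38), and the others, holding 1.16 to 1.27% of the counts, were left out. Estimated counts were summed over 58592 genes and rounded. The deposited TPM and transcript lengths served for length-scaled counts.

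Genes passing filterByExpr (17743) were tested with the quasi-likelihood F test of edgeR 4.0.16 (R 4.3.3), with TMM scaling, 1 fit of all 23 libraries, a coefficient per group and 14 residual degrees of freedom; calls use a Benjamini-Hochberg adjusted p of 0.05. The contrast is 100 nM minus the mean of Neg1 and Neg2 at 2 h, and SE is the log2 fold change over the square root of F. P-values cover the spread between these libraries only, which may be technical. Libraries held 17396484 to 26373153 estimated counts. The scripts were tested on simulated data.

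Named are the 12 largest rises and 12 largest falls of called coding genes whose mean log2 CPM is 2 or more and whose groups do not overlap, up to 2 called members each way of each gene list, 23 genes given whatever their values, and, under the same conditions in that contrast, the 5 largest differences each way from 30 nM. Some of them are given only within counts, and 1 of the falls is not reported here. The members, lists and classes were chosen with earlier results of these data known. Replicate numbers were checked for pairing by correlating deviations from group means. Alternatives were DESeq2 1.42.0, limma 3.58.1 (voom), other scaling, filters and references, length-scaled counts, left-out libraries and a replicate block.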

Additional observations from a re-analysis of the deposited data

Results flagged for a closer look

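In 13 of the 144 named genes 1 of the 4 control libraries stood far from the other 3 in CPM, where chance gives this in about 1 in 20 groups. Of these, 8 were in Neg2 replicate 1, given here with the range of the other controls in brackets. RBPMS was 3.77 (2.03 to 2.22), ATF3 2.01 (1.70 to 1.73) and FANCM 37.2 (32.3 to 32.8) there, above the others. CHAC1 was 32.8 (41.7 to 42.9), CDK11B 50.9 (56.9 to 57.0), POLR2F 30.9 (46.5 to 49.2), HNRNPC 1051 (1152 to 1165) and PABPN1 169.9 (215 to 219), below them. In Neg1 replicate 1, PLA2G15 was 13.4 (10.3 to 10.6) and LSS 168 (155 to 156). In Neg1 replicate 2, PLPP6 was 7.42 (4.77 to 5.08) and BCL2 4.17 (2.46 to 2.74). In Neg2 replicate 2, MT-ND3 was 1115 (727 to 746), against 1526, 1504 and 1117 CPM at 100 nM. Groups of 3 libraries were not examined in this way.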

How the results depend on the processing

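The count of genes called stayed within 1.5 times under every alternative run: 7951 with DESeq2, 7524 with limma voom, 7949 with other size factors, 6078 with length-scaled counts, 6866 in a fit of the 7 libraries, 6498 without 100 nM replicate 1 and Neg2 replicate 1, and 7025 to 7659 over single libraries left out. Same-numbered libraries showed little shared deviation from their group means (correlations -0.008 to 0.041). With 2 libraries per control group, whose deviations mirror each other, this cannot exclude pairing. A replicate block gave 7854 genes called. With library totals, an alternative added after seeing the data, as were all counts of list members, 2494 genes were called higher. With a minimum mean log2 CPM of 2, 166 were 2-fold higher and 523 lower, since fewer genes were tested. The count of 100 nM against 30 nM was 834 with length scaling and 839 to 2823 over single libraries left out, the lowest without 100 nM replicate 1; the cause was not tested. Of 2863 values of named genes, 2721 kept direction and call, 127 lost the call, 4 gained it and 11 changed sign; 111 of 140 called genes were called throughout. The sign changes were HRK (0.279), CDKN1A (0.244) and CDK9 (-0.0202) with length scaling, IER2 (-0.0337), BUB1 (-0.00912) and CDK9 (-0.0505) with library totals, BBC3 (-0.063) without both libraries named above, and BCL2 with Neg2 alone (0.105) and with the replicate block (0.00684). Over single libraries left out, CDK9 ranged from -0.0193 to 0.235, BBC3 from 0.0568 to 0.396 and BCL2 from -0.249 to 0.0776. Low genes rest on few reads.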
